A study of Homo sapiens with 8 samples.

Results

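The nuclear-encoded genes of the mitochondrial respiratory chain were examined in KG1a cells across 4 treatments. They were chosen by symbol alone, as NDUFA, NDUFB, NDUFC, NDUFS and NDUFV genes (complex I), SDHA to SDHD (complex II), UQCR genes (complex III), COX4 to COX8 genes (complex IV) and ATP5 genes (complex V), without pseudogenes and antisense genes. This gave 86 of the 25168 genes in the count table, with 36 in complex I, 4 in complex II, 9 in complex III, 18 in complex IV and 19 in complex V. NDUFA4, named after complex I, was counted with complex IV, of which it is a subunit. Of the 86, 78 had enough reads to be tested.

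The respiratory chain sits in the inner mitochondrial membrane. Complexes I and II pass electrons from NADH and succinate to ubiquinone, complex III passes them to cytochrome c, and complex IV passes them to oxygen, while complexes I, III and IV pump protons. Complex V, the ATP synthase, uses the proton gradient to make ATP. Most subunits are encoded in the nucleus, and a few core subunits of complexes I, III, IV and V are encoded in mitochondrial DNA. Leukemia stem-like cells are known for their dependence on oxidative phosphorylation, and BCL2 inhibition has been linked to loss of this pathway in them.

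KG1a is an established human acute myeloid leukemia line of immature phenotype, grown in IMDM with 10% FBS. The cells received 5 µM TAK-981 with 1 µM venetoclax, 5 µM TAK-981 alone, 1 µM venetoclax alone, or DMSO as vehicle, each for 48 h, with 2 libraries per group and 8 in all. TAK-981 inhibits the enzyme that activates the small protein modifier SUMO, and venetoclax inhibits the apoptosis blocker BCL2. All groups are 1 cell line in 1 medium. Nothing in the labels says whether the 2 libraries of a group were grown apart. The p-values therefore measure library-to-library spread pooled over the 4 groups, and that spread may be technical.

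The libraries held 13204588 to 26304900 counts. The fixed list of 6 line markers was CD34, PTPRC, SPN, CD33, MPO and KIT. CD34, PTPRC and SPN carried most of its summed 2462 to 3041 CPM. Of the 6, only 4 reached 1 CPM in a library of the TAK-981, venetoclax or vehicle group, and 5 with the combination. The erythroid, stromal and epithelial marker lists summed to 0.218 CPM or less and the monocyte and B cell lists to 1.46 CPM or less in every library. In the T cell list 2 of 3 genes (CD3D and CD3E, not CD2) reached 1 CPM, and the list summed to 23.5 to 27.4 CPM with the combination, 45.2 to 46.7 with TAK-981, 30.7 to 42.6 with venetoclax and 37.3 to 49.98 with vehicle, and their part in the results was not tested. The 2 venetoclax libraries stood apart from each other. Over the 78 members, replicates differed by a median of 0.11 log2 units with the combination, 0.11 with TAK-981, 0.25 with venetoclax and 0.16 with vehicle. The p-values use 1 estimate of spread per gene, shared by the 4 groups. They can therefore be too small in comparisons that include the venetoclax group and too large in the others. The 13 genes encoded in mitochondrial DNA matched no gene of the count table under the symbols searched, so they were not analysed here.

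The 8 untested members are mainly isoforms of other tissues and gene copies. COX4I2, COX6A2, COX7A1 and COX7B2 had 0 counts in all 8 libraries, where 3 counts would correspond to 0.114 to 0.227 CPM depending on the library. COX6B2 had 1 count and COX8C 3 counts over all libraries, ATP5L2, a copy of ATP5L, had 16, and the readthrough gene ATP5J2-PTCD1 had 22. The ubiquitous partners of the silent isoforms were all read, with vehicle levels of 135 and 159 CPM for COX4I1, 29.7 and 35.1 CPM for COX6A1, 92.5 and 109 CPM for COX6B1, 90.6 and 102 CPM for COX7A2 and 21.4 and 23.7 CPM for COX8A. Thus the isoforms known from lung, heart, skeletal muscle and testis were at or near 0 and the general ones were present. A few symbols of the set are not plain subunit genes. ATP5S encodes factor B, ATP5SL a complex I assembly protein, UQCRHL is an intronless copy of UQCRH, and COX7A2L encodes a factor of the supercomplexes that complexes III and IV form.

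Per kilobase of the gene length deposited by the authors, vehicle levels of the tested subunit genes differed widely within each complex. Complex I ran from 0.521 CPM per kb for NDUFA11 to 125.8 CPM per kb for NDUFS5, complex II from 8.21 for SDHC to 60.3 for SDHD, complex III from 4.62 for UQCR11 to 111 for UQCRH, complex IV from 19.8 for COX5B to 108 for COX6B1 and complex V from 4.45 for ATP5J2 to 131 for ATP5B. These are levels on the CPM per kb scale and can be off where the deposited length does not match the transcripts made in KG1a. For UQCRB that length, 9.714 kb, equals the span of the gene with its introns. Of the 86 members, 45 overlap another gene of the table, and since no strand setting is given in the sources used here, reads of such pairs may be shared.

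Venetoclax alone was compared with vehicle for its own effect on the chain. Of 78 tested members, 19 rose and 0 fell, with a median log2 fold change of 0.23 over the 78 members against 0.00 over all 12843 genes tested. Over all genes, 11.4% were called higher and 9.44% lower (edgeR's quasi-likelihood test, adjusted p under 0.05). The members' share called higher was 24.4%. Complex I had 10 of 36 members higher (median 0.27), complex II 1 of 4 (0.08), complex III 3 of 9 (0.25), complex IV 1 of 12 (0.21) and complex V 4 of 17 (0.12). Log2 fold changes were above 0 for 58 of the 78. In bulk RNA, fewer cells of a kind and less RNA per cell cannot be told apart. Of the complex I accessory subunits, which surround the catalytic core, 9 of 29 were called higher, at a median of 0.33. Of the 7 nuclear-encoded core subunits 1 was called, at a median of -0.01. The core median differed between the 2 venetoclax libraries, at -0.24 from the vehicle mean in replicate 1 and 0.21 in replicate 2 (log2 CPM), where the accessory median was 0.16 and 0.28. The difference between the 2 kinds of subunit was not tested.

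**Figure D1:**
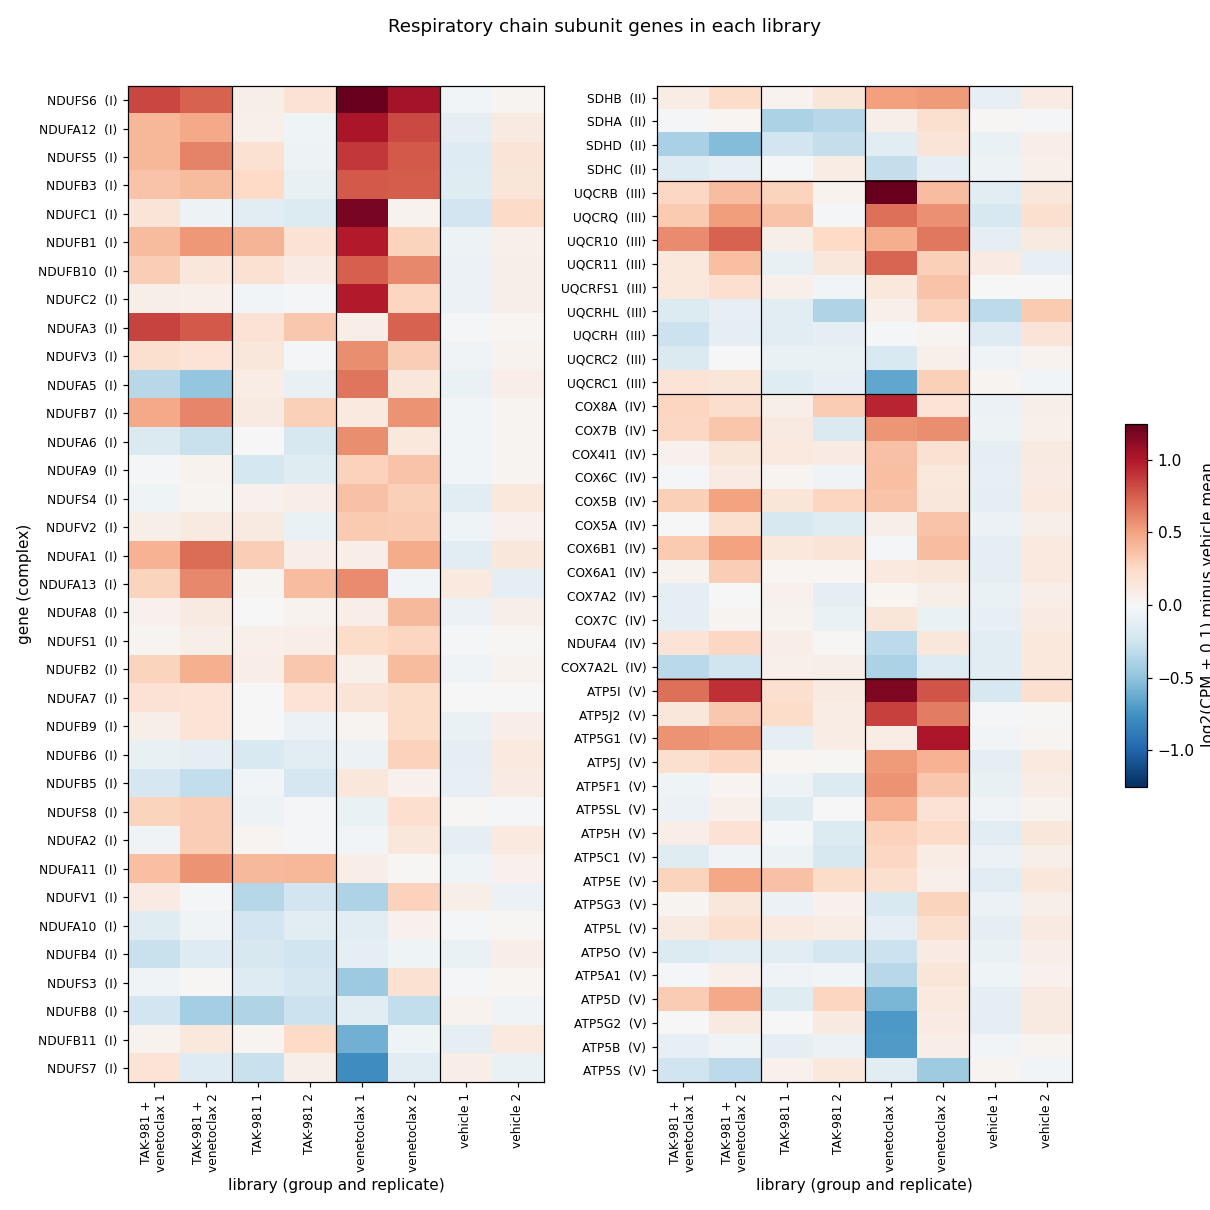
Heat map of 77 tested members (vertical axis, grouped by complex and ordered by the venetoclax effect) in the 8 libraries (horizontal axis), coloured by log2(CPM + 0.1) minus the mean of the vehicle libraries, with values past the ends of the colour bar drawn in its end colours. The venetoclax columns hold the strongest colours and differ from each other, and the TAK-981 columns are pale. The combination columns are milder than venetoclax for NDUFS6, NDUFA12 and ATP5I but not for NDUFA3 and UQCR10.

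The gene with the largest rise was NDUFS6 (chromosome 5, 1801400 to 1816605, hg38), a zinc-binding accessory subunit of the NADH-oxidizing arm of complex I. It had 43.3 and 34.6 CPM with venetoclax, against 16.4 and 17.2 CPM with vehicle. Both venetoclax libraries were above both vehicle libraries, and the log2 fold change was 1.20 (SE 0.141, adjusted p = 0.0021). NDUFA12, an accessory subunit that, like NDUFS6, joins complex I late in its assembly (chromosome 12, 94897055 to 95003770), had 78.4 and 68.2 CPM with venetoclax and 35.5 and 41.6 CPM with vehicle. Its groups did not overlap either, at a log2 fold change of 0.92 (SE 0.121, adjusted p = 0.00277). ATP5I (now ATP5ME), which encodes subunit e of the membrane part of the ATP synthase, had 79.3 and 60.7 CPM with venetoclax and 30.7 and 40.5 CPM with vehicle (chromosome 4, 672436 to 674338). This was a log2 fold change of 0.97 (SE 0.17, adjusted p = 0.00689). NDUFS6 and NDUFA12 stayed called in each of the 8 fits that left out 1 library, and ATP5I in all but the one without vehicle replicate 1.

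Respiratory chain promoters are known for sites of NRF1, of GABP (an ETS factor, also called NRF2) and of YY1. The promoters of these 3 genes, the largest rises, are printed. They were called in at least 7 of the 8 fits that left out 1 library, and their RefSeq start lies near the 5′ end of the deposited gene. ATP5J, NDUFB3 and NDUFS5 were also called in 7 of those fits but had no window or a RefSeq start farther off. Each is the RefSeq window of GRCh38.p14 from 250 bases before to 50 bases after the start of transcription, 5′ to 3′ on the strand of the gene. The windows are chr5:1801157-1801456 (plus strand) for NDUFS6, chr12:95003648-95003947 (minus strand) for NDUFA12 and chr4:674227-674526 (minus strand) for ATP5I. Capitals mark exact matches on either strand to the motifs searched, which were the cores CGCANGC for NRF1, CCGGAAG for ETS factors and GATGGCG for YY1. The NRF1 core can overlap itself on the opposite strand, and the 3 motifs do not contain each other.
NDUFS6: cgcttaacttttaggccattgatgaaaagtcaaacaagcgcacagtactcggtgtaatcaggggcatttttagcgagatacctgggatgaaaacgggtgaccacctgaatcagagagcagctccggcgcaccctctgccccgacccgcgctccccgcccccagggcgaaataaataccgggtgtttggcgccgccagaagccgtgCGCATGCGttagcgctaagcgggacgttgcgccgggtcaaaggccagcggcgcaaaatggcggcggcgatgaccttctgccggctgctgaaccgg
NDUFA12: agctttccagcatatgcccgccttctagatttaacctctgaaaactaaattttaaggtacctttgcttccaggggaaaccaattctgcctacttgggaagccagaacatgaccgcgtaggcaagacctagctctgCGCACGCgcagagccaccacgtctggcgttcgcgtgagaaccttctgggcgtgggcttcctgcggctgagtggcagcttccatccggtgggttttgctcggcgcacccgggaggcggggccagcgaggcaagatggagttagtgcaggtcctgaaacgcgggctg
ATP5I: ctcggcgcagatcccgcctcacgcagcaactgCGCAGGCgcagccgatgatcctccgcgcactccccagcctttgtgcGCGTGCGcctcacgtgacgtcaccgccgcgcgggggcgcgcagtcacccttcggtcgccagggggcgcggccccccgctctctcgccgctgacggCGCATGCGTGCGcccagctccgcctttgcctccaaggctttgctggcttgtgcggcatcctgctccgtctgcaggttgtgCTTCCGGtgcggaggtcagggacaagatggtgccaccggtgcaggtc
NDUFS6 holds the NRF1 core on both strands of a single stretch that begins 45 bases before the start. NDUFA12 holds it once, beginning 115 bases before the start. ATP5I holds it in stretches that begin 218, 172 and 77 bases before the start, and has an ETS motif that begins at base 4 of the transcript. Over the 67 members with a RefSeq promoter, using 1 window per gene, the NRF1 core was in 46.3% (20.3% of 27305 promoters of the same length), the ETS motif in 28.4% (10.7%) and the YY1 core in 13.4% (4.35%). Among the 15 members called higher with venetoclax that have a window, the shares were 53.3%, 26.7% and 20.0%, and among the 48 other tested members 43.8%, 31.3% and 12.5%. With 15 windows, 1 promoter more or less moves a share by several percentage points, and a match is a description of letters, not of binding.

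The other called members of complex I with venetoclax were NDUFS5 (log2 fold change 0.82), NDUFB3 (0.75), NDUFB1 (0.67), NDUFB10 (0.67), NDUFC2 (0.66), NDUFV3 (0.44), NDUFA9 (0.33) and NDUFV2 (0.32). NDUFB1, NDUFB3, NDUFB10 and NDUFC2 belong to the membrane arm, NDUFS5 lies on its outer face, and NDUFV2 is an iron-sulfur subunit of the arm that oxidizes NADH. NDUFB3 had 84.0 and 83.6 CPM with venetoclax and 44.5 and 54.8 CPM with vehicle, an example in which both venetoclax libraries agree closely. NDUFC2 had 61.5 and 37.2 CPM with venetoclax and 29.4 and 32.4 CPM with vehicle, an example in which they do not. Without venetoclax replicate 1 the log2 fold change of NDUFC2 was 0.27 (adjusted p = 0.0789) and that of NDUFB1 was 0.28 (adjusted p = 0.0634), and each of these genes was called in 1 of the 8 fits that left out 1 library. NDUFV3, NDUFA9 and NDUFV2 were called in only 2 of those fits, NDUFB10 in 6, and NDUFS5 and NDUFB3 in 7. The core subunit NDUFS1 was not called. It had 208 and 212 CPM with venetoclax and 175 and 178 CPM with vehicle (log2 fold change 0.25, adjusted p = 0.0676), and was called higher without either venetoclax library.

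In complex II, SDHB, the iron-sulfur subunit, had 51.0 and 51.8 CPM with venetoclax and 33.3 and 38.6 CPM with vehicle (log2 fold change 0.52, SE 0.116, adjusted p = 0.0159). The flavoprotein SDHA and the membrane anchors SDHC and SDHD were not called, at 0.14, -0.20 and 0.02. In complex III, UQCRB, a small subunit that contacts cytochrome b, rose by 0.92 (SE 0.254, adjusted p = 0.0336), UQCRQ by 0.62 and UQCR10 by 0.56, while the core proteins UQCRC1 and UQCRC2 and the Rieske protein UQCRFS1 were not called. UQCRB had 879 and 462 CPM with venetoclax and 320 and 390 CPM with vehicle, so its 2 venetoclax libraries lay far apart. Without replicate 1 its log2 fold change was 0.38. With the 4 venetoclax and vehicle libraries fitted alone, UQCRB was at 0.90 and not called (adjusted p = 0.128). In complex IV only COX7B, an accessory subunit, was called, with 143 and 146 CPM with venetoclax and 93.5 and 102 CPM with vehicle (log2 fold change 0.56, SE 0.114, adjusted p = 0.011). In complex V the other called members were ATP5J2 (subunit f, 0.75), ATP5J (coupling factor 6, 0.48) and ATP5F1 (subunit b of the peripheral stalk, 0.45). The catalytic ATP5A1 and ATP5B were not called, at -0.08 and -0.26. Of the 8 fits that left out 1 library, UQCRB, UQCRQ and ATP5F1 were called in only 2. SDHB, UQCR10, COX7B and ATP5J2 were called in 6 of them and ATP5J in 7.

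Members with shorter annotated transcripts carried more of the venetoclax calls. Among the 39 tested members with transcripts up to the median of 1296 bases (GENCODE v29), 13 were called higher and the median log2 fold change was 0.32, and among the 39 longer ones 6 were called and the median was 0.07. Across the 78 members, which share the same libraries, Spearman's rho between the venetoclax effect and transcript length was -0.38 and that with GC content was 0.02, against -0.10 and -0.21 over 9788 genes of at least 5 CPM. Length and GC content are those of the longest annotated protein-coding transcript of a gene, which may not be the one made in KG1a. The part of transcript length in the result was not tested.

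The 2 venetoclax libraries differed from each other by gene. Relative to the vehicle mean, 49 of 78 members were above it in both venetoclax libraries, 8 were below it in both, 19 were below in replicate 1 and above in replicate 2, and 2 were the reverse. The largest gap belonged to NDUFC1, a membrane-arm subunit with 14.5 and 6.55 CPM, and ATP5B had 185 and 322 CPM. Without venetoclax replicate 1, 29 members were called higher and 1 lower. Without venetoclax replicate 2, 29 were called higher and 14 lower, and 18 members were called higher both times. NDUFV1, which binds NADH, and the complex III core protein UQCRC1 were called higher without replicate 1 and lower without replicate 2. Without vehicle replicate 1, 2 members were called, without vehicle replicate 2, 6, and without any 1 library of the other groups, 11. With the 4 venetoclax and vehicle libraries fitted alone, 2 were called, both higher. The shares of all genes called in these fits are not given here. The counts therefore do not set the members apart from other genes. In terms of overlap, both venetoclax libraries were above both vehicle libraries for 40 members and below for 6 (29.7% and 28.5% of all genes tested, against 51.3% and 7.69% of the members).

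**Figure D2:**
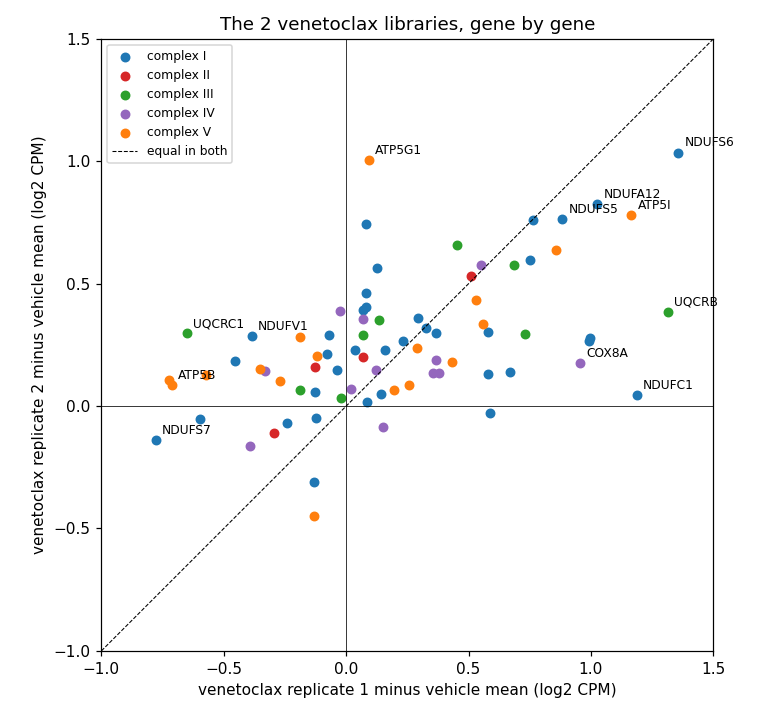
Each point is 1 of the 78 tested members, with its log2 CPM difference from the vehicle mean in venetoclax replicate 1 (horizontal axis) and replicate 2 (vertical axis), coloured by complex, and the dashed line marks equal differences. NDUFS6, NDUFA12 and ATP5I are far above 0 on both axes, while 19 members lie left of 0 and above 0, among them UQCRC1, NDUFV1 and ATP5B.

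TAK-981 alone was compared with vehicle for its own effect. Of the 78 members, 1 rose, 1 fell and 76 did not pass the test, at a median of 0.02 over the 78 members and 0.00 over all genes. Over all genes 5.98% were called higher and 6.18% lower. SDHA, the flavoprotein that oxidizes succinate (chromosome 5, 218241 to 256700), had 57.2 and 58.9 CPM with TAK-981 and 75.6 and 74.4 CPM with vehicle, and fell by 0.37 on the log2 scale (SE 0.0944, adjusted p = 0.0347). Both TAK-981 libraries were below both vehicle libraries.

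The summed level of complex II was 357 ± 5.69 CPM with TAK-981 and 398 ± 23.9 CPM with vehicle (SD, n = 2 libraries each), a ratio of 0.898, while the other complexes had ratios of 0.987 to 1.02. That sum does not stand for SDHA alone. SDHD, also part of it, was at a log2 fold change of -0.27 with TAK-981 and was not called (adjusted p = 0.184). The SDHA call is close to the threshold. It was not made without either vehicle library, either TAK-981 library or either combination library, and 6 members were called without venetoclax replicate 1 and 7 without venetoclax replicate 2. The TAK-981 libraries were above both vehicle libraries for 14 members and below for 15, which is 17.9% and 19.2% of the members (32.4% and 32.9% of all genes).

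The combination was compared with vehicle for the effect of both drugs. Of the 78 members, 8 rose and 1 fell, at a median of 0.11 over the 78 members and 0.01 over all genes. Over all genes 12.8% were called higher and 15.1% lower, and the members' shares were 10.3% and 1.28%, so the share called higher is near that of all genes. Complex I had 6 of the 8 rises, complexes III and V had 1 each and complex IV had 0, and complex II had the fall. Both combination libraries were above both vehicle libraries for 36 members and below for 12 (36.8% and 35.8% of all genes, 46.2% and 15.4% of the members).

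NDUFS6 was again among the rises, with 30.2 and 28.0 CPM with the combination and 16.4 and 17.2 CPM with vehicle (log2 fold change 0.79, SE 0.142, adjusted p = 0.00371). ATP5I had 57.1 and 66.6 CPM with the combination and 30.7 and 40.5 CPM with vehicle (0.79, SE 0.17, adjusted p = 0.00868). NDUFA3, a small membrane-arm subunit that overlaps TFPT, had 18.7 and 17.7 CPM with the combination and 10.2 and 10.5 CPM with vehicle (0.81, SE 0.206, adjusted p = 0.0178). In all 3 genes the groups did not overlap. UQCR10, a small complex III subunit, rose by 0.66, NDUFA1 by 0.56, NDUFS5 by 0.51 and NDUFA12 by 0.44. The comparisons of the combination and of each single drug use the same vehicle libraries.

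SDHD, the small membrane anchor of complex II (chromosome 11, 112086773 to 112193561), was the member that fell. It had 129 and 117 CPM with the combination and 161 and 180 CPM with vehicle (log2 fold change -0.47, SE 0.119, adjusted p = 0.0174). The groups did not overlap. Its row overlaps TIMM8B, IL18, BCO2 and TEX12, and with a correction for GC content its log2 fold change was -0.30 and not called (adjusted p = 0.121). The summed level of complex II was 345 ± 0.508 CPM with the combination and 398 ± 23.9 CPM with vehicle (SD, n = 2 each), a ratio of 0.866, while the ratios of complexes I, III, IV and V were 1.09, 1.10, 1.08 and 1.04. Most of that difference was in SDHD. Of the 4 members of complex II, 2 had log2 fold changes above 0, at a median of -0.06. The ratio therefore does not stand for complex II as a whole.

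**Figure D3:**
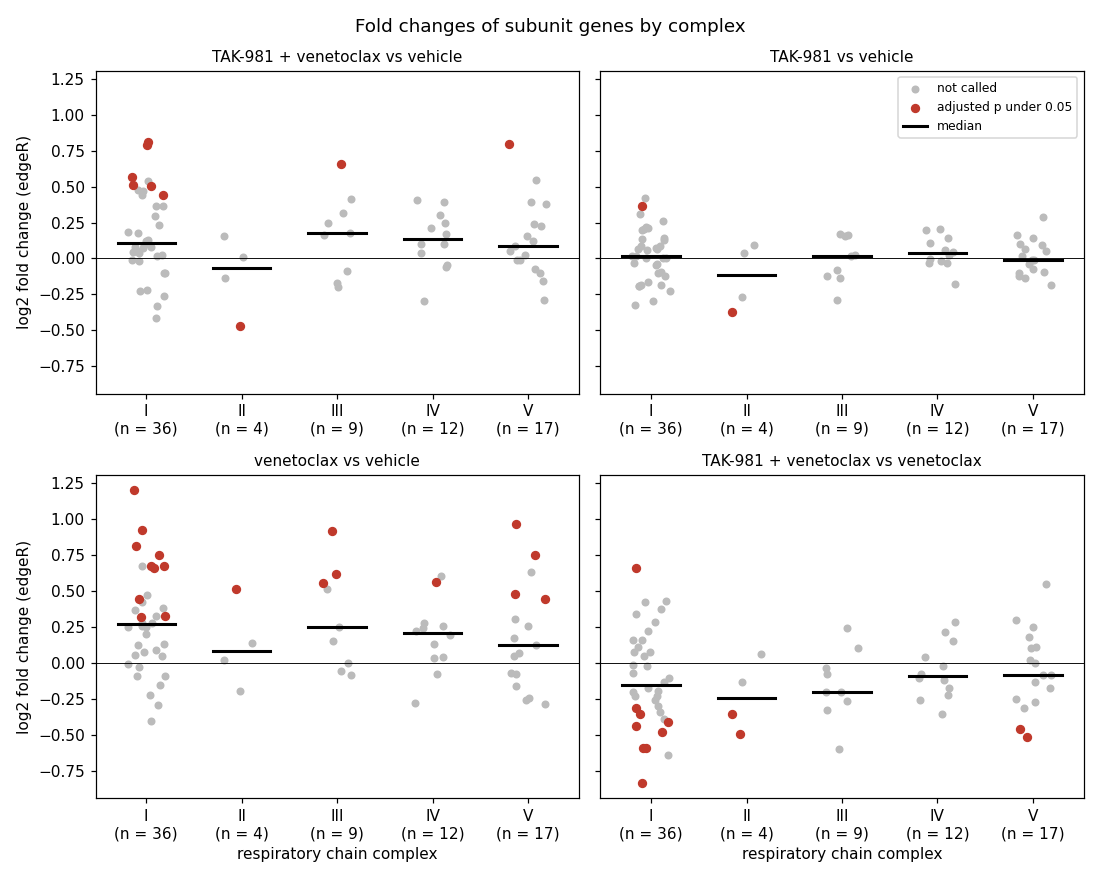
Log2 fold changes (vertical axis) of the 78 tested members by complex (horizontal axis, with the number of members) in 4 comparisons, with called members in red and a bar at each median. Venetoclax against vehicle has 19 red points, all above 0, the combination against venetoclax has 12 red points below 0 and 1 above, and TAK-981 against vehicle has 2.

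The combination effect moved with base composition. Spearman's rho between the log2 fold change and transcript GC content was 0.43 over the 78 members and 0.43 over 9788 genes of at least 5 CPM, and with transcript length -0.43 and -0.18. With a correction for GC content, 11 members were called, 7 of them among the 9. Without combination replicate 1, 4 members were called, without replicate 2, 2, without vehicle replicate 1, 3, and without vehicle replicate 2, 4. Leaving out either venetoclax library gave 28. NDUFS6 was called in all 8 fits that left out 1 library. ATP5I and UQCR10 were called in 6 of them, NDUFS5 and SDHD in 5, NDUFA3 and NDUFA1 in 4 and NDUFA12 in 2. With the correction for GC content NDUFA1 was at 0.43 and not called (adjusted p = 0.0581).

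TAK-981 was then examined in cells that also received venetoclax, by setting the combination against venetoclax alone. Of the 78 members, 1 was higher and 12 were lower, and the median was -0.11 over the 78 members and -0.02 over all genes. Over all genes 17.6% were called higher and 22.0% lower, so the members' shares of 1.28% and 15.4% were below both. Complex I had 8 members lower and 1 higher, complex II 2 lower and complex V 2 lower, and complexes III and IV had 0 called. Both combination libraries were below both venetoclax libraries for 33 members and above for 8 (35.8% and 32.9% of all genes, 42.3% and 10.3% of the members).

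NDUFA5, an accessory subunit of the matrix arm of complex I (chromosome 7, 123536997 to 123624582), had the largest fall, with 74.6 and 67.7 CPM with the combination and 151 and 104 CPM with venetoclax. The log2 fold change was -0.84 (SE 0.167, adjusted p = 0.0048). Vehicle had 89.3 and 101 CPM, so the venetoclax libraries lay above vehicle and the combination below it, at 0.42 (adjusted p = 0.0993) and -0.42 (adjusted p = 0.0942), neither of which passed the test. NDUFA6 was lower than with venetoclax by 0.60, NDUFC2 by 0.59, ATP5J2 by 0.51, SDHD by 0.49, NDUFA12 by 0.48, ATP5F1 by 0.46, NDUFB10 by 0.44, NDUFS6 by 0.41, SDHB by 0.36, NDUFB5 by 0.36 and NDUFA9 by 0.31 on the log2 scale. Of these, NDUFC2, ATP5J2, NDUFA12, ATP5F1, NDUFB10, NDUFS6, SDHB and NDUFA9 were called higher with venetoclax against vehicle. Both comparisons use the same 2 venetoclax libraries, so they are not independent. NDUFS6 and NDUFA12 were still called above vehicle with the combination (0.79 and 0.44). Spearman's rho between the log2 fold change and GC content was 0.36 over the members and 0.51 over 9788 genes of at least 5 CPM. With a correction for GC content 15 members were called, 8 of them among the 13, and NDUFA5 was at -0.39 (adjusted p = 0.031) and SDHD at -0.24 (adjusted p = 0.19, not called). Without venetoclax replicate 1, NDUFA5 was at -0.56, NDUFA6 at -0.36 and NDUFC2 at -0.20 (adjusted p = 0.16, not called), and without replicate 2 NDUFC2 was at -0.93. NDUFC2 and NDUFS6 were called in 1 each of the 8 fits that left out 1 library. NDUFA9 was called in 2 of those fits, ATP5J2, NDUFB5 and SDHB in 4, and NDUFB10 in 5. NDUFA6, NDUFA12 and ATP5F1 were called in 6 and SDHD in 7. ATP5F1, NDUFA9, NDUFB5 and NDUFC2 were also not called with the correction for GC content.

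NDUFA5 was called in all 8 fits that left out 1 library. Without combination replicate 1, 3 members were called, without replicate 2, 2, without TAK-981 replicate 1, 8, and without TAK-981 replicate 2, 6. Without venetoclax replicate 1, 20 were called and without replicate 2, 45, and with the 4 libraries fitted alone, 2.

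**Figure D4:**
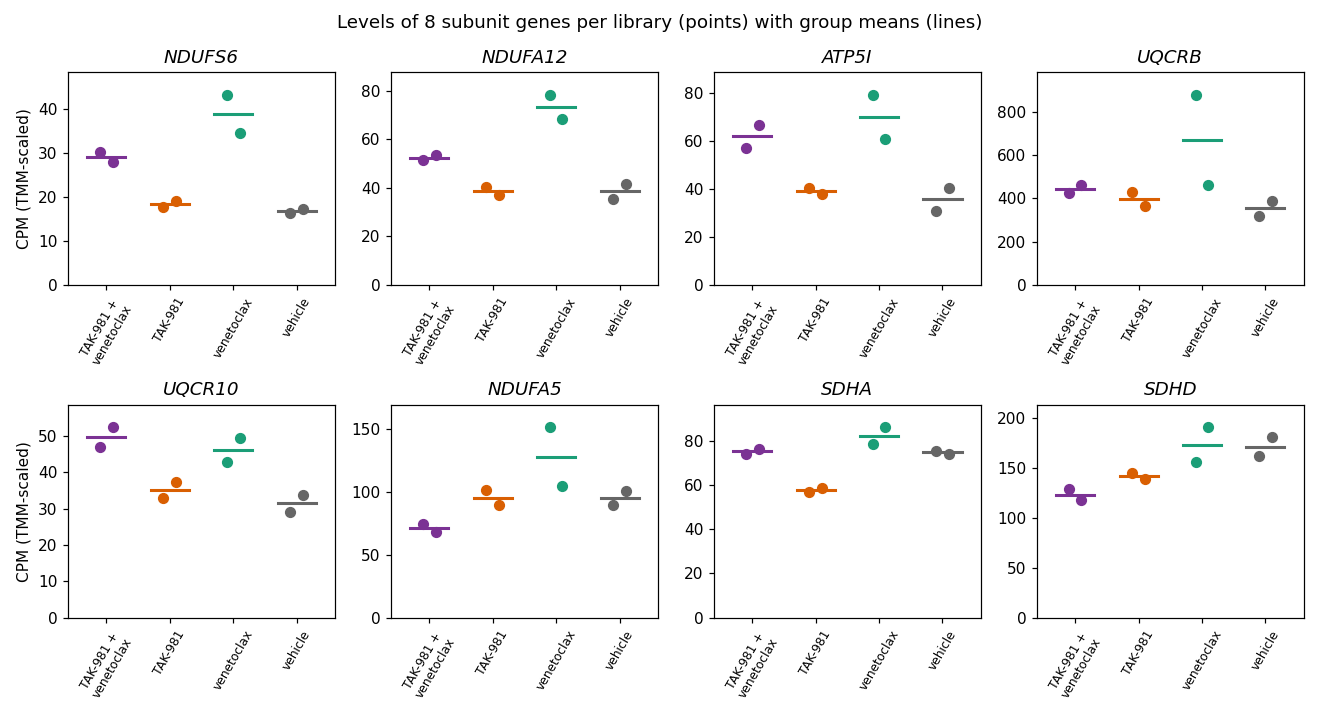
TMM-scaled CPM (vertical axes, from 0) of NDUFS6, NDUFA12, ATP5I, UQCRB, UQCR10, NDUFA5, SDHA and SDHD in the 4 groups, with a point per library and a line at each group mean. NDUFS6, NDUFA12 and ATP5I are highest with venetoclax and intermediate with the combination, SDHA is lowest with TAK-981 alone and SDHD with the combination.

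Venetoclax was also examined in cells that received TAK-981, by setting the combination against TAK-981 alone. Of the 78 members, 4 were higher and 0 lower, at a median of 0.11 against 0.02 for all genes, of which 2.76% were called higher and 6.03% lower. They were NDUFS6 (log2 fold change 0.66, SE 0.142, adjusted p = 0.0231), ATP5I (0.65), UQCR10 (0.50) and SDHA (0.38). NDUFS6 had 30.2 and 28.0 CPM with the combination and 17.7 and 19.1 CPM with TAK-981, and SDHA had 74.3 and 76.5 CPM with the combination and 57.2 and 58.9 CPM with TAK-981. In both genes the groups did not overlap. Both combination libraries were above both TAK-981 libraries for 35 members and below for 7 (33.8% and 31.6% of all genes, 44.9% and 8.97% of the members). With a correction for GC content none of the 4 was called and 2 other members were. Leaving out 1 library of the combination, TAK-981 or vehicle group gave 0 called members each time, and 18 were called without venetoclax replicate 1 and 19 without replicate 2.

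The interaction, which is the TAK-981 effect with venetoclax less the TAK-981 effect without it, was called for 0 of 78 members by edgeR's quasi-likelihood test, DESeq2 and limma-voom, with 8 members (10.3%) at an unadjusted p under 0.05 in edgeR, against 18.9% of all genes. Of all genes 0.0311% were called. The smallest p among the members belonged to NDUFA5 (-0.84, SE 0.234, adjusted p = 0.156). Without venetoclax replicate 2, 30 members were called, and without replicate 1, 1, so the count depended on which venetoclax library was kept.

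Summed over all 78 members, the level was 7191 ± 303 CPM with the combination, 6757 ± 146 CPM with TAK-981, 7822 ± 107 CPM with venetoclax and 6791 ± 517 CPM with vehicle (SD, n = 2 each). The ratios to vehicle were 1.06, 0.995 and 1.15. For complex I the sums were 1892 ± 39.3 CPM with the combination, 1736 ± 50.7 CPM with TAK-981, 2115 ± 9.43 CPM with venetoclax and 1735 ± 92.0 CPM with vehicle. The venetoclax sum of complex III, 1318 ± 231 CPM against 962 ± 90.7 CPM with vehicle, gave the highest ratio, 1.37. UQCRB alone had 879 CPM of it in venetoclax replicate 1 and 462 CPM in replicate 2. A sum is led by its most abundant genes, so it can differ from the count of members called.

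Genes around the respiratory chain were read from lists of assembly factors, electron carriers with coenzyme Q synthesis, regulators of mitochondrial transcription, and the TCA cycle, in which the succinate used by complex II is made. Of 52 assembly factors, 17 (32.7%) rose and 3 (5.77%) fell with venetoclax against vehicle (median 0.22), where 11.4% of all genes rose and 9.44% fell. With TAK-981, 0 rose and 1 (1.92%) fell, against 5.98% and 6.18% of all genes. With the combination against vehicle, 5 (9.62%) rose and 8 (15.4%) fell, near the 12.8% and 15.1% of all genes. With the combination against venetoclax, 4 (7.69%) were higher and 22 (42.3%) lower (median -0.27), against 17.6% and 22.0% of all genes. COA7, an assembly factor of complex IV, rose by 0.82 with venetoclax, and NDUFAF4 and NDUFAF1, which build complex I, rose by 0.85 and 0.67. SDHAF3, which helps to mature the iron-sulfur subunit SDHB, fell by 1.03 with the combination against vehicle, and LYRM7, which guides insertion of the complex III Rieske protein, by 0.73. With a correction for GC content LYRM7 was at -0.42 (adjusted p = 0.0206).

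Of 19 carrier and coenzyme Q genes, 4 (21.1%) rose with venetoclax and 3 (15.8%) fell with TAK-981, against 11.4% and 6.18% of all genes. With the combination against venetoclax 7 (36.8%) were lower and 1 (5.26%) higher, against 22.0% and 17.6% of all genes. With the combination against vehicle 3 (15.8%) fell, which is near the 15.1% of all genes. CYCS, cytochrome c itself, had 183 and 170 CPM with the combination, 206 and 201 CPM with TAK-981, 300 and 347 CPM with venetoclax and 201 and 225 CPM with vehicle. It rose by 0.60 with venetoclax against vehicle (adjusted p = 0.00768) and was lower with the combination than with venetoclax by a log2 fold change of -0.87 (adjusted p = 0.000689). PDSS1, which makes the tail of coenzyme Q, rose by 0.65 with venetoclax and fell by 0.80 with TAK-981 and by 0.44 with the combination. CYC1, the cytochrome c1 subunit of complex III that the symbol choice does not take, was called in none of the 5 comparisons of 2 groups. ATPIF1, the ATP synthase inhibitor, rose by 0.75 with venetoclax (0.36 without venetoclax replicate 1), and C14orf2 and USMG5, which are small ATP synthase subunits, were not called. The ATPIF1 rise was not called without any 1 vehicle or TAK-981 library. With the 4 venetoclax and vehicle libraries fitted alone it was also not called (adjusted p = 0.116).

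Of 21 tested regulators, 3 (14.3%) fell with TAK-981, against 6.18% of all genes. With the combination against venetoclax 7 (33.3%) were lower and 1 (4.76%) higher, against 22.0% and 17.6% of all genes. The 3 (14.3%) that rose with venetoclax and the 4 (19.0%) that fell with the combination against vehicle are near the shares of all genes, 11.4% and 15.1%. GABPB1, the beta subunit of GABP, had 41.5 and 44.5 CPM with the combination, 57.4 and 52.5 CPM with TAK-981, 138 and 111 CPM with venetoclax and 103 and 114 CPM with vehicle. It fell by 1.34 with the combination (adjusted p = 0.000209) and by 0.98 with TAK-981 (adjusted p = 0.00182), and the groups given TAK-981 did not overlap the others. GABPB1 overlaps its antisense gene at its 5′ end. TFAM, which packages and transcribes mitochondrial DNA, rose by 0.47 with venetoclax and fell by 0.46 with the combination, where it was at -0.19 and not called with a correction for GC content (adjusted p = 0.123). Its fall was also not called without vehicle replicate 2 or combination replicate 2. Its rise was not called without either vehicle library. SSBP1, which binds single-stranded mitochondrial DNA, rose by 1.08 with venetoclax. PPARGC1A, a coactivator of mitochondrial biogenesis, was at 0 counts in all 8 libraries. Of 18 TCA cycle and pyruvate dehydrogenase genes, 6 (33.3%) rose with venetoclax and 2 (11.1%) fell with TAK-981, against 11.4% and 6.18% of all genes. With the combination against vehicle 1 (5.56%) rose and 3 (16.7%) fell, the second near the share of all genes. With the combination, 8 (44.4%) were lower than with venetoclax, against 22.0% of all genes. DLAT, a pyruvate dehydrogenase subunit, was among them at -1.04. Without vehicle replicate 1 the venetoclax rises of NDUFAF4, NDUFAF1, CYCS, PDSS1 and SSBP1 were not called, nor were those of NDUFAF1 and PDSS1 without vehicle replicate 2. The falls of PDSS1 were not called without either vehicle library, and its fall with TAK-981 also not without TAK-981 replicate 2 and that with the combination also not without any 1 TAK-981 or combination library.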

How the data were processed

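RNA of KG1a cells (miRNeasy kit) was sequenced in single 51-cycle reads on a HiSeq 2500, per the labels' protocols. On the library method the series design gives Ribo-Zero, whereas the labels' protocols give SMART-Seq v4. The authors deposited raw whole-number counts for each gene, with positions on hg38. The submitters' processing notes list the tools Trimmomatic, HTSeq 0.11.1, STAR 2.6.0 and edgeR. Which annotation was used, and how strand and multi-mapped reads were handled, is not given in the sources used here.

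Counts were tested with edgeR 4.0.16 (R 4.3.3), by the quasi-likelihood F test with TMM scaling, filterByExpr by group, robust dispersion and 1 fit over the 8 libraries. P-values were two-sided and adjusted by Benjamini-Hochberg over the 12843 genes tested, with a threshold of 0.05. Where no tool is named, an adjusted p-value is from edgeR. SE was approximated by dividing the size of the log2 fold change by the square root of F. CPM is TMM-scaled, and log2 CPM used a prior count of 2. The 4 groups share 1 estimate of spread. GC content and transcript length are from GENCODE v29, for all 86 members. They are those of the longest protein-coding transcript of each gene, or of its longest transcript where none is protein-coding. Rows of multi-copy genes spanning over 2.5 Mb were left out of the count of overlaps. The floor of 3 counts covers counting error only. The test was checked on simulated counts in which each gene had the same spread in all groups. That check therefore does not cover the wider gap between the 2 venetoclax libraries.

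The members and the lists were chosen with earlier results of these data known. Named members are the largest called changes of at least 5 CPM per comparison, the smallest p of each complex, core and paired-isoform subunits, non-subunits, and up to 4 called genes per list. The values of 1 member are not reported here, though it is in all counts, medians and sums. In the lists 121 of 134 genes matched the table. Alternatives were a block for the replicate number, no filter on low counts, a filter at a mean of 1 CPM, DESeq2-style size factors, the 4 libraries of a comparison alone, DESeq2 1.42.0, limma-voom (limma 3.58.1) and leaving out each library. A correction for GC content (loess, span 0.4) was added after seeing the data.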

Additional observations from a re-analysis of the deposited data

How the results depend on the processing

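With DESeq2-style size factors, a mean of at least 1 CPM, DESeq2 or limma-voom, each count of called members stayed within 1.5 times the value given above. With the 4 libraries of a comparison alone, the counts were 27 (combination against vehicle), 7 (TAK-981 against vehicle), 2 (venetoclax against vehicle), 2 (combination against venetoclax) and 20 (combination against TAK-981). With no filter on low counts they were 16 for the combination against vehicle, 10 for the combination against TAK-981 and 2 for the interaction, both lower. With the GC correction the combination against TAK-981 gave 2. Leaving out 1 library in turn gave 2 to 28 called members for the combination against vehicle, 0 to 7 for TAK-981 against vehicle, 2 to 45 for the combination against venetoclax, 2 to 43 for venetoclax against vehicle, 0 to 19 for the combination against TAK-981 and 0 to 30 for the interaction. Shares of all genes called in these fits are not given here, so the counts do not compare the members with other genes. The cause of these shifts was not tested.

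Some uncalled genes changed sign. UQCRHL with TAK-981 ran from -0.59 without vehicle replicate 1 to 0.077 without vehicle replicate 2. UQCRC1 with venetoclax was at 0.070 with the GC correction and ran from -0.65 without venetoclax replicate 2 to 0.30 without venetoclax replicate 1. NDUFV1 with venetoclax was at 0.16 with the GC correction and 0.062 without vehicle replicate 1, and ran from -0.39 without venetoclax replicate 2 to 0.29 without venetoclax replicate 1.

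The labels do not say that replicate numbers pair samples, and the deviations of same-numbered libraries correlated at -0.00949 to 0.207 over 12843 genes. With the replicate block, 11 members were called for the combination against vehicle, 2 for TAK-981, 18 for venetoclax, 15 for the combination against venetoclax, 3 for the combination against TAK-981 and 0 for the interaction. None of the 8 untested members had more than 22 counts over the 8 libraries, and at 0 counts only a level above the floor can be told from 0.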
